A study of Ctenopharyngodon idella and Danio rerio with 13 samples.

Results

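The genes hsp70.3, hspa5, hspa8, fosaa, egr1 and ier3 were followed in 13 RNA libraries of fish sperm. They are 6 of the 31314 named entries in the count files, found by symbol, and all 6 are protein-coding genes. They were chosen by their levels in CPM (read counts per 1000000 counts on named genes) in these same 13 libraries, where several of them stood out in single libraries, so their levels and fold changes are a description and carry no test. Tests are given only for other genes of the same pathways and for the entries that lie beside them on the chromosome.

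Sperm came from 3 groups of fish. GSCT (germline stem cell transplantation) sperm was collected from 3 zebrafish that had received germline stem cells. Its genotype is given as surrogate reproduction and its organism as Ctenopharyngodon idella, the grass carp, and the series title speaks of female germline stem cells. The other libraries came from 5 grass carp and 5 zebrafish (Danio rerio), both labelled wildtype. No age, strain or treatment is given for any group. All groups share one procedure, in which 0.5 µL of sperm per fish was diluted in 20 µL of Hank's buffer and 1 µL of the dilution went straight into a full-length mRNA amplification kit made for single cells.

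The HSP70 proteins are ATP-driven chaperones that bind exposed hydrophobic stretches of unfolded proteins. hsp70.3 belongs to the heat-inducible cytosolic members, whose transcription is switched on by heat shock factors, hspa8 encodes the cognate form that cells make all the time, and hspa5 encodes BiP, the HSP70 of the endoplasmic reticulum and a target of the unfolded protein response. fosaa, egr1 and ier3 are immediate early genes, which are transcribed within minutes of a stimulus without new protein synthesis. Mature sperm carry condensed chromatin and make little or no new RNA, and the RNA they hold is largely left over from their formation in the testis.

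The totals on named genes, to which CPM are scaled, ran from 376926 to 2602370 in GSCT libraries, from 1335167 to 5471312 in grass carp libraries and from 487 to 248321 in zebrafish libraries, with 487 in zebrafish replicate 3. A floor of 3 counts was worth 1.15 to 7.96 CPM in a GSCT library, 0.548 to 2.25 CPM in a grass carp library and 12.1 to 6160 CPM in a zebrafish library. The zebrafish libraries were counted on the same entries as the grass carp libraries and held a count on 237 to 6264 named genes, against 28173 to 30154 in the other libraries. In them 13.8% to 77.9% of all counts fell on entries without a gene name, against at most 0.678% in the other libraries. Of 20 sperm markers in the files all 20 had counts in GSCT and in grass carp libraries, with summed levels of 849 to 979 CPM and 884 to 971 CPM. In zebrafish libraries 13 of the 20 had counts, and tekt1, tekt4, odf2b, spata18, rsph1, rsph9 and spaca6 were at 0. Markers of other cells had counts as well. Most named genes had a count in these libraries. The median protein-coding gene stood at 26.2 to 27.3 CPM in GSCT and at 27.7 to 29.3 CPM in grass carp libraries. A count on a marker, of sperm or of other cells, therefore does not show that its cell type was present. For the same reason, a count on any gene followed here does not by itself show that its transcript was present in sperm. The 17 leukocyte markers summed to 522 to 639 CPM in GSCT and 611 to 853 CPM in grass carp libraries, the 13 red blood cell markers to 412 to 451 CPM and 425 to 449 CPM, and the 18 markers of testis somatic cells to 547 to 584 CPM and 553 to 647 CPM. The ranges of GSCT and grass carp overlapped for each of the 4 marker lists, and the part of such cells in the levels below was not tested.

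Between GSCT and grass carp sperm the 6 genes fell into 3 patterns. hsp70.3, hspa5, fosaa and egr1 were higher in each of the 3 GSCT libraries than in any of the 5 grass carp libraries, ier3 was lower in each of them, and hspa8 overlapped. That made 5 of 6 genes without overlap, 4 higher and 1 lower. Over the 28165 genes tested, 15.7% had levels that did not overlap, 6.04% with GSCT higher and 9.67% with GSCT lower. Since these same levels chose the genes, nothing is read from the difference. The library composition also moved with the groups. rRNA genes held 0.994% to 1.79% of named counts in GSCT and 0.0553% to 0.118% in grass carp libraries, and mitochondrial genes 0.618% to 1.79% and 0.0113% to 0.0278%. The part of this in the levels was not tested beyond the scaling without these genes, under which the same count of 5 was found. At such shares that scaling could barely move the levels, so it could hardly have changed the count. The count of 5 was also found under the other 2 of 3 alternative scalings. It also stayed at 5 when any single library of the 8 was left out. Leaving out a library cannot make separated groups overlap, so those runs could not have lost any of the 5. In bulk samples a lower share of a cell type and less RNA per cell cannot be told apart.

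**Figure D1:**
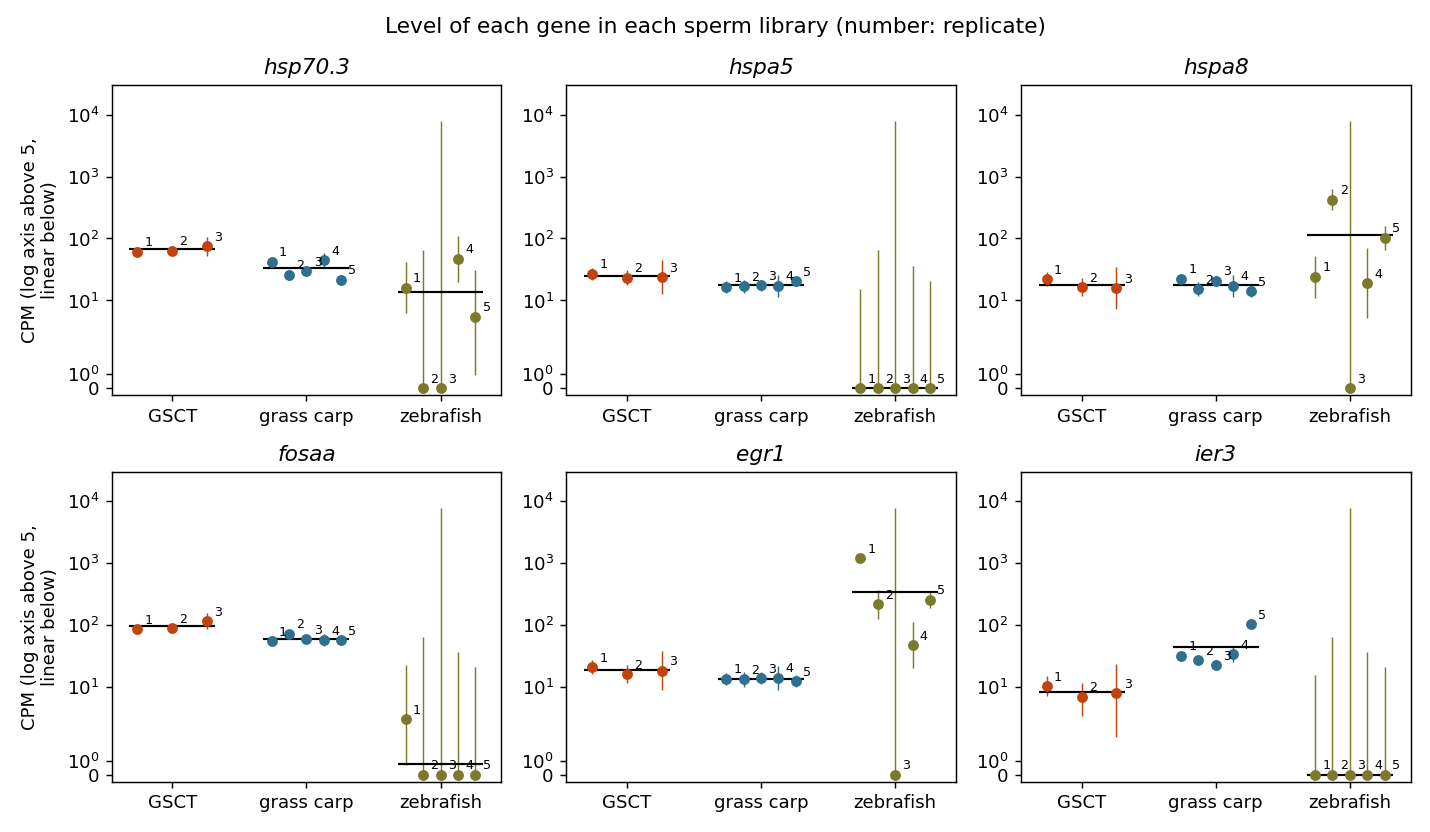
Level of each of the 6 genes in CPM (log axis above 5, linear below) in the 3 GSCT, 5 grass carp and 5 zebrafish libraries; numbers are replicates, bars are 95% Wilson intervals for counting error and black lines are group means. GSCT points lie above all grass carp points for hsp70.3, hspa5, fosaa and egr1 and below them for ier3, while egr1 and hspa8 reach their highest points in zebrafish replicates 1 and 2.

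Of the chaperones, hsp70.3 differed most between these groups. Its level was 61.5, 63.6 and 74.3 CPM in GSCT replicates 1 to 3. In grass carp replicates 1 to 5 it was 42.2, 25.9, 29.4, 44.9 and 21.6 CPM. The lowest GSCT library thus lay above the highest grass carp library, and the grass carp libraries spread over a wider range than the GSCT libraries. The means were 66.5 ± 6.86 CPM (SD, n = 3) and 32.8 ± 10.3 CPM (SD, n = 5), a ratio of 2.03. The fitted log2 difference, GSCT minus grass carp, was 1.09 ± 0.20 (SE) and stayed between 0.95 and 1.24 when single libraries were left out.

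hspa5, the chaperone of the endoplasmic reticulum, differed by less. Its level was 26.9, 23.4 and 23.9 CPM in GSCT replicates 1 to 3 and 16.4, 17.0, 17.6, 17.2 and 20.7 CPM in grass carp replicates 1 to 5. The groups did not overlap, with grass carp replicate 5 closest to the GSCT libraries. The log2 difference was 0.55 ± 0.19 (SE), with means of 24.7 ± 1.90 CPM (SD, n = 3) and 17.8 ± 1.67 CPM (SD, n = 5). GSCT replicate 3 rests on 9 reads, and its 95% Wilson interval for counting error of 12.6 to 45.4 CPM spans all grass carp values.

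hspa8, the constitutive cognate chaperone, overlapped between the groups and had nearly the same mean in both. It measured 21.9, 16.4 and 15.9 CPM in GSCT replicates 1 to 3 and 22.5, 15.2, 20.9, 17.2 and 14.3 CPM in grass carp replicates 1 to 5. The means were 18.1 ± 3.33 CPM (SD, n = 3) and 18.0 ± 3.58 CPM (SD, n = 5). The log2 difference of 0.12 ± 0.23 (SE) changed sign to -0.08 without GSCT replicate 1. Within one library, where depth cancels, hsp70.3 stood 2.81 to 4.67 times above hspa8 in GSCT libraries and 1.41 to 2.61 times above it in grass carp libraries, with means of 3.79 ± 0.934 (SD, n = 3) and 1.82 ± 0.476 (SD, n = 5). The ratio of hspa5 to hspa8 overlapped, at 1.39 ± 0.141 (SD, n = 3) and 1.03 ± 0.279 (SD, n = 5).

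The same counts were also expressed as shares of their own family of 15 HSP70 genes, which restates the levels above and is no second measurement. The share of hsp70.3 in the family's counts was 11.8% ± 0.977 (SD, n = 3) for GSCT and 5.77% ± 1.60 (SD, n = 5) for grass carp. hspa8 took 3.22% ± 0.578 and 3.19% ± 0.611. The shares of hsp70.3 ran from 10.8% to 12.8% in GSCT and from 4.05% to 7.52% in grass carp libraries and did not overlap, whereas those of hspa8 did.

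Of the 6 genes fosaa had the highest mean CPM in GSCT and in grass carp libraries, though not in zebrafish libraries, and in grass carp replicate 5 ier3 stood above it. fosaa encodes a FOS protein, which pairs with JUN proteins to form the transcription factor AP-1. Its level was 86.5, 89.3 and 117 CPM in GSCT replicates 1 to 3 and 54.9, 72.9, 59.1, 57.7 and 57.2 CPM in grass carp replicates 1 to 5. All GSCT libraries lay above all grass carp libraries, and grass carp replicate 2 stood apart from the other 4. The means were 97.5 ± 16.7 CPM (SD, n = 3) and 60.4 ± 7.18 CPM (SD, n = 5), and the log2 difference was 0.70 ± 0.14 (SE). Its share of the counts on 5 FOS genes was 42.8% ± 3.59 (SD, n = 3) for GSCT and 31.4% ± 1.47 (SD, n = 5) for grass carp, without overlap.

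egr1, a zinc finger transcription factor, showed a smaller gap. It measured 21.1, 16.4 and 18.6 CPM in GSCT replicates 1 to 3 and 13.7, 13.3, 14.0, 14.2 and 12.6 CPM in grass carp replicates 1 to 5. The 5 grass carp libraries lay within a narrow band, below the lowest GSCT library. The means were 18.7 ± 2.38 CPM (SD, n = 3) and 13.6 ± 0.629 CPM (SD, n = 5), with a log2 difference of 0.55 ± 0.21 (SE). GSCT replicate 3 holds 7 reads of egr1, and its interval of 8.996 to 38.3 CPM covers every grass carp value. Relative to its family egr1 did not separate the groups, at 22.2% ± 4.205 (SD, n = 3) and 19.7% ± 0.612 (SD, n = 5) of the counts on 5 EGR genes. The ratio of fosaa to egr1 overlapped as well, at 4.09 to 6.29 in GSCT and 4.01 to 5.47 in grass carp libraries.

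ier3 went the other way. In mammals it encodes a short-lived protein that modulates cell survival and NF-kappaB signalling. Its level was 10.4, 7.02 and 7.96 CPM in GSCT replicates 1 to 3 and 32.05, 27.4, 22.6, 34.5 and 104 CPM in grass carp replicates 1 to 5. Every GSCT library lay below every grass carp library, and grass carp replicate 5 held several times the level of the other grass carp libraries. The means were 8.45 ± 1.73 CPM (SD, n = 3) and 44.1 ± 33.8 CPM (SD, n = 5), the latter 29.1 ± 5.22 CPM without grass carp replicate 5. Grass carp were 5.22-fold higher by these means. The log2 difference of -2.31 ± 0.52 (SE) ranged from -2.58 to -1.65 when single libraries were left out. The level in GSCT replicate 3 comes from 3 reads, with an interval of 2.71 to 23.4 CPM. Per read of fosaa in the same library, GSCT libraries held 0.0682 to 0.120 reads of ier3 and grass carp libraries 0.376 to 1.82.

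To compare the genes with each other, CPM was divided by the length of the gene's span in kilobases, from the RefSeq gene table of assembly HZGC01. The spans were 1598 bp for ier3, 2827 bp for hsp70.3, 3888 bp for egr1, 4394 bp for hspa8, 5314 bp for hspa5 and 10321 bp for fosaa. All are below the median span of protein-coding genes, 11002 bp. On this scale hsp70.3 led in GSCT libraries with 23.5 ± 2.43 CPM per kb (SD, n = 3), followed by fosaa with 9.45 ± 1.62 (SD, n = 3). ier3, egr1, hspa5 and hspa8 followed between 5.29 ± 1.08 and 4.11 ± 0.758 CPM per kb (SD, n = 3), and neighbours in that order overlapped. In grass carp libraries the order was different. ier3 came first with 27.6 ± 21.1 CPM per kb (SD, n = 5) and overlapped with hsp70.3 at 11.6 ± 3.63 (SD, n = 5). fosaa followed at 5.85 ± 0.696 (SD, n = 5), and hspa8, egr1 and hspa5 lay between 4.10 ± 0.816 and 3.34 ± 0.313 CPM per kb (SD, n = 5) with overlap between neighbours.

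Ranked among all protein-coding genes of its library on this scale, hsp70.3 stood at the 99.8th percentile in GSCT libraries and between the 95.0th and the 99.6th in grass carp libraries. ier3 went the other way. It ranked from the 99.6th percentile upward in each of the 5 grass carp libraries and between the 80.7th and the 91.9th in GSCT libraries. fosaa ranked from 96.1 to 97.9 in GSCT and from 85.7 to 92.7 in grass carp libraries. egr1 and hspa5 ranked from 79.2 to 87.3 and from 80.1 to 84.8 in GSCT, and from 64.2 to 69.2 and from 60.1 to 73.2 in grass carp libraries. hspa8 overlapped, from 71.9 to 84.3 in GSCT and from 64.2 to 84.3 in grass carp libraries. Dividing by span raises genes with short spans, and hsp70.3 and ier3 lie at the 10.7th and 4.09th percentiles of span. By count among all named genes, hsp70.3 had ranks of 2650 to 3867 in GSCT and 7355 to 16409 in grass carp libraries. ier3 had ranks of 23060 to 24856 in GSCT and 921 to 16623 in grass carp libraries. hspa5 had ranks of 13482 to 14794 and 16915 to 19801, hspa8 of 16022 to 18721 and 16184 to 20690. egr1 had ranks of 16428 to 18721 and 20765 to 21756. Without division by span, hspa5, hspa8 and egr1 lay below the median protein-coding gene in CPM in each GSCT and grass carp library. Whether counts at such levels come from transcripts present in sperm was not tested.

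**Figure D2:**
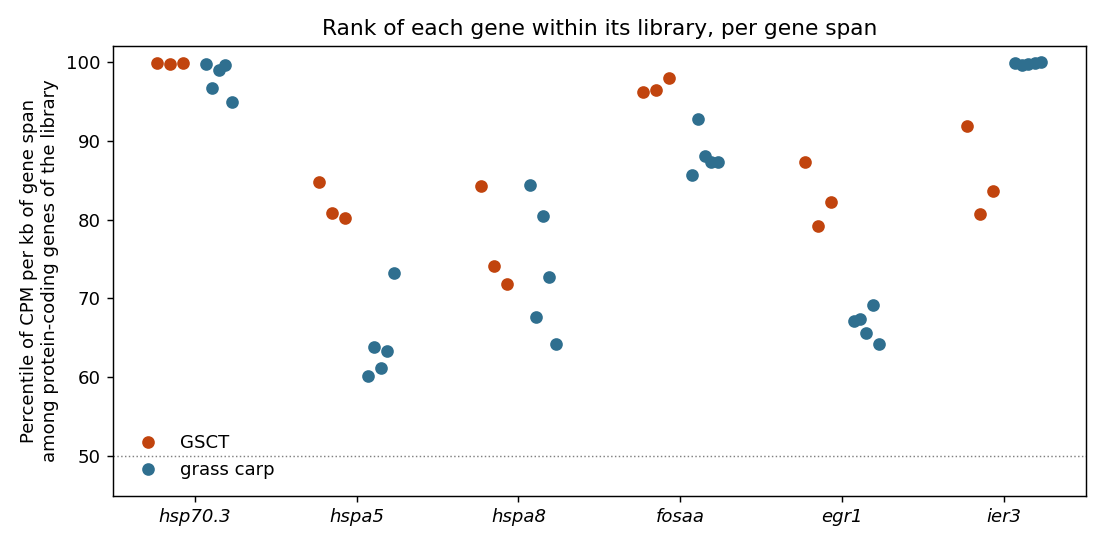
Percentile of each gene's CPM per kb of gene span among the protein-coding genes of the same library (axis starting at 45), 1 point per GSCT or grass carp library; the dotted line marks the 50th percentile. hsp70.3 sits at the 99.8th percentile in GSCT libraries, and ier3 sits above the 99th in all 5 grass carp libraries and between 80.7 and 91.9 in the 3 GSCT libraries.

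The entries that lie beside the 6 genes were then examined, with 2 on each side and 24 in all. Of these 21 had enough counts to be tested and 1 passed, which is 4.76%, near the 4.34% called over all genes, so the count of neighbours is no result about these surroundings. It is LOC127508413, which lies next to hsp70.3, spans 2923 bp and has no further name in the gene table. Its level was 48.8, 42.6 and 50.4 CPM in GSCT replicates 1 to 3 and 30.7, 17.0, 26.4, 25.5 and 19.0 CPM in grass carp replicates 1 to 5. All GSCT libraries lay above all grass carp libraries. The log2 difference was 1.04 ± 0.19 (SE), with an adjusted p = 0.00280 (edgeR's quasi-likelihood F test, Benjamini-Hochberg). It passed in every alternative run, with an adjusted p of at most 0.0421 when single libraries were left out. No sequence of the 2 entries was compared, and whether reads were shared between them was not tested. On the other side of hsp70.3, atp2a1, the calcium pump of the muscle sarcoplasmic reticulum, had a log2 difference of -0.30 ± 0.22 (SE; adjusted p = 0.492, edgeR). On one side of hspa5, LOC127512731 and LOC127512732 had 0.56 ± 0.21 and 0.57 ± 0.21 (log2 ± SE; adjusted p = 0.138 and 0.128, edgeR), near hspa5 itself. On its other side rabepk had -0.08 ± 0.34 (log2 ± SE). Around fosaa, flvcr2a had 0.52 ± 0.15 (log2 ± SE; adjusted p = 0.0540, edgeR), jdp2a 0.22 ± 0.16, zc2hc1c 0.23 ± 0.24 and acyp1 -0.48 ± 0.51 (log2 ± SE). Around egr1, kdm3b had 0.36 ± 0.14, while reep2 had -0.22 ± 0.18, smim19 -0.50 ± 0.40 and si:ch211-175m2.5 -0.49 ± 0.27 (log2 ± SE). Beside hspa8, LOC127521601 had -0.62 ± 0.28 and zpr1 -0.06 ± 0.19 (log2 ± SE). Neighbours thus did not in general move with the gene beside them.

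Around ier3 no neighbour passed. tor4ab, on one side, had a log2 difference of -0.26 ± 0.13 (SE; adjusted p = 0.291, edgeR), and ddr2l, a receptor tyrosine kinase of the discoidin domain family on the other, had -0.08 ± 0.14 (SE; adjusted p = 0.800, edgeR). In grass carp replicate 5, where ier3 stood at 104 CPM, tor4ab was at 68.9 and ddr2l at 71.6 CPM, beside ranges of 57.8 to 64.4 and 58.4 to 78.7 CPM in the other 4 grass carp libraries. tor4ab, like ier3, was lower in all 3 GSCT libraries, at 47.8 to 53.8 CPM, but by a far smaller amount, whereas ddr2l overlapped between the groups.

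**Figure D3:**
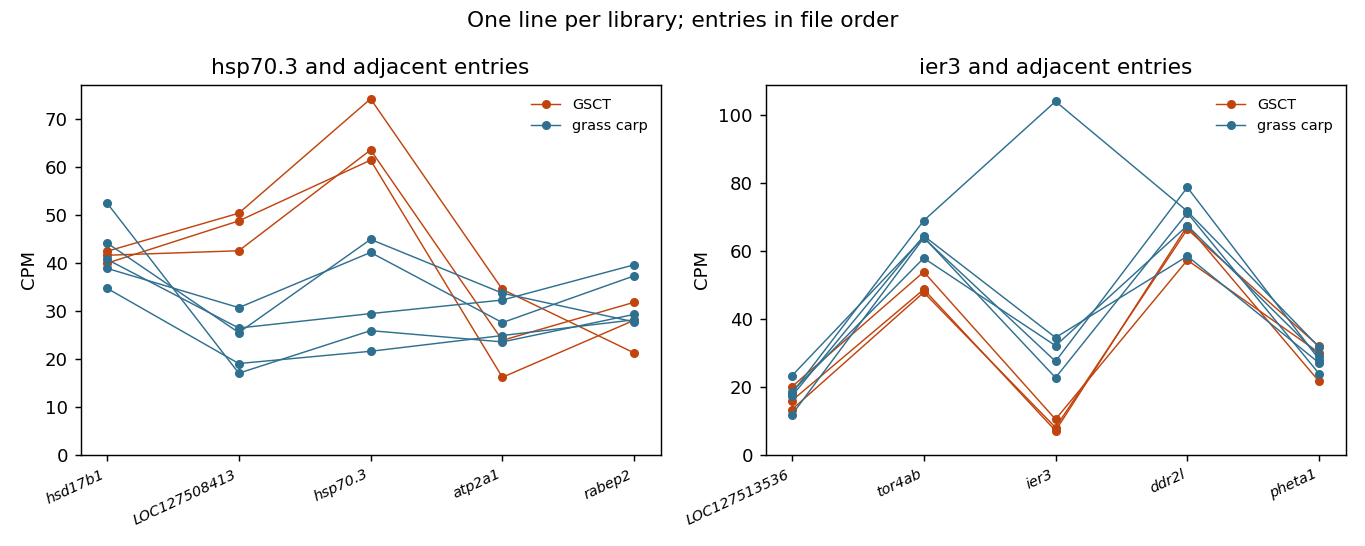
CPM of hsp70.3 (left) and ier3 (right) and of the 2 entries on each side of them in file order, 1 line per GSCT or grass carp library. LOC127508413 and hsp70.3 are both higher in the 3 GSCT libraries, while of the entries beside ier3 tor4ab is lower in GSCT by a small amount and ddr2l overlaps.

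Across the 8 GSCT and grass carp libraries the genes with the pattern most like each member were listed by the Pearson correlation of log2(CPM + 1), over 28164 genes. These values describe 8 libraries that fall into 2 groups and differ in depth. Closest to hsp70.3 was LOC127513823 (0.991), closest to hspa5 LOC127508584 (0.967) and closest to fosaa LOC127509892 (0.996), followed by ankrd67 (0.984). dusp8b (0.981), a phosphatase of MAP kinases, was closest to egr1, and taok3a (0.989) and mab21l3 (0.986) were closest to ier3. hspa8 was most like skida1 (0.962) and naca (0.961). Among the 6 themselves, hsp70.3 and egr1 correlated at 0.839, hspa5 and egr1 at 0.846, fosaa and egr1 at 0.788 and hspa5 and hspa8 at -0.06. The 6 were chosen by these levels, so their correlations largely restate the split between the groups. ier3 correlated negatively with the other 5, from -0.854 with hsp70.3 to -0.232 with hspa8. Over all 13 libraries ier3 correlated at 0.900 with hspa5, 0.868 with fosaa and 0.572 with hsp70.3. With egr1 and hspa8 it correlated there at -0.446 and -0.167. No member was among the 3 genes most like another member.

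The wider pathways were read from 9 lists of heat shock, unfolded protein response and immediate early genes, which hold 185 further genes in the files. Of the 183 tested, 4 were higher in GSCT than in grass carp sperm and 0 were lower at the threshold (edgeR's quasi-likelihood F test, Benjamini-Hochberg adjusted p under 0.05). That is 2.19% of the lists, beside 4.34% of all 28165 genes, with 3.49% higher and 0.849% lower. Over all genes the split was 984 higher and 239 lower, and 718 higher and 422 lower when libraries were scaled by their totals alone. At an unadjusted p under 0.05, 13 listed genes were higher and 15 lower by edgeR, and DESeq2 called 2 higher and 0 lower after adjustment. The direction of the listed calls turned with the libraries used: without GSCT replicate 1 edgeR called 0 higher and 3 lower, with 0 of the 4 genes among them, and without grass carp replicate 2 it called 5 higher and 3 lower. The median log2 difference of the listed genes was -0.06, beside -0.01 for all genes.

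The 4 genes that passed were 2 co-chaperones and 2 other immediate early genes. dnajb4, a DNAJ protein that delivers clients to HSP70, was at 25.4, 21.5 and 37.1 CPM in GSCT replicates 1 to 3 and at 13.1 to 18.0 CPM in grass carp libraries, with a median of 15.7. Its log2 difference was 0.79 ± 0.21 (SE; adjusted p = 0.0359, edgeR). cdc37, which loads protein kinases onto HSP90, had a log2 difference of 0.83 ± 0.24 (SE; adjusted p = 0.0488, edgeR), and here the groups overlapped, at 13.3 to 22.3 CPM in GSCT and 8.96 to 15.7 CPM in grass carp libraries. btg2, an antiproliferative gene induced by p53, showed 1.13 ± 0.28 (SE; adjusted p = 0.0216, edgeR), from 15.9 to 23.9 CPM in GSCT and 6.53 to 14.1 CPM in grass carp libraries. gadd45gb.1, a growth arrest and DNA damage gene, showed 0.90 ± 0.25 (SE; adjusted p = 0.0420, edgeR), and its lowest GSCT level of 16.1 CPM lay just below the highest grass carp level of 16.5 CPM. None of the 4 calls held in every setting, and all 4 were lost when GSCT replicate 2 or grass carp replicate 5 was left out. Without GSCT replicate 2, the adjusted p from edgeR was 0.102 for dnajb4, 0.235 for btg2, 0.266 for cdc37 and 0.396 for gadd45gb.1. Leaving out GSCT replicate 1 also ended all 4 calls, GSCT replicate 3 those of dnajb4 and gadd45gb.1, grass carp replicate 3 those of dnajb4, cdc37 and gadd45gb.1, and grass carp replicate 1 that of gadd45gb.1.

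The other lists held no gene that passed. In the HSP70 family, 0 of 12 did, and the lowest p belonged to hyou1, an HSP110-like chaperone of the endoplasmic reticulum, with a log2 difference of -0.64 ± 0.20 (SE; adjusted p = 0.0751, edgeR). In the HSP90 family 0 of 4 passed, with hsp90b1 at 0.34 ± 0.19 and hsp90ab1 at 0.31 ± 0.21 (log2 ± SE). Of the 6 heat shock factor genes 0 passed, and hsf1, the main activator of heat-induced transcription, had -0.38 ± 0.17 (log2 ± SE; adjusted p = 0.211, edgeR). Of 15 small, mitochondrial and collagen chaperones 0 passed, with hspd1 at -0.41 ± 0.21 and hspb1 at -0.40 ± 0.21 (log2 ± SE). The list of the unfolded protein response, the pathway that drives hspa5, had 0 of 26. There canx, a lectin chaperone, had 0.54 ± 0.17 (log2 ± SE; adjusted p = 0.0700, edgeR) and chac1 0.50 ± 0.19 (log2 ± SE), while calr3a had -0.61 ± 0.27 and ern2 -0.38 ± 0.17 (log2 ± SE). At an unadjusted p under 0.05, 2 genes of this list were higher and 2 lower by edgeR, and the median log2 difference of the list was -0.10.

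Among the partners and relatives of fosaa, 0 of 11 AP-1 genes passed. jun, which encodes the usual dimer partner of FOS, measured 11.1, 11.7 and 13.3 CPM in GSCT and 7.82, 4.97, 6.79, 4.49 and 8.59 CPM in grass carp libraries. Its groups did not overlap, but the log2 difference of 0.83 ± 0.30 (SE) missed the threshold at an adjusted p = 0.126 (edgeR). Of 31 EGR, NR4A, KLF, MYC and SRF genes 0 passed, with klf6a at 0.57 ± 0.21 and egr2a at 0.49 ± 0.20 (log2 ± SE). stip1, the adaptor between HSP70 and HSP90, resembled ier3 in having uneven grass carp libraries, from 21.9 to 136 CPM with a median of 27.7, beside 18.8, 12.6 and 5.31 CPM in GSCT replicates 1 to 3, which lay below all of them. Its log2 difference of -1.82 ± 0.56 (SE) had an adjusted p = 0.0702 (edgeR), and the highest value lay in grass carp replicate 3, not in replicate 5.

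**Figure D4:**
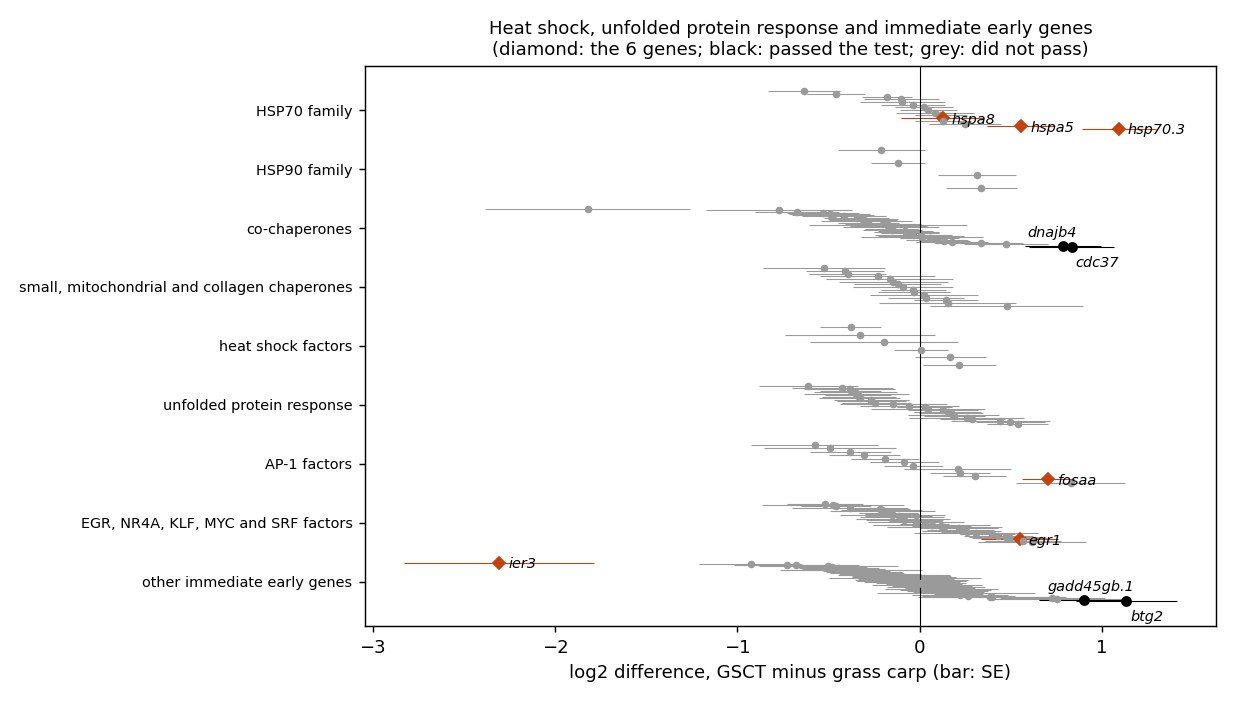
Fitted log2 difference, GSCT minus grass carp, of each listed gene (bars: SE) in 9 pathway lists. Diamonds are the 6 genes, black points the 4 listed genes that passed the test and grey points those that did not; grey points lie on both sides of 0 in all 9 lists, hsp70.3 lies farthest right among the diamonds and ier3 farthest left.

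In the zebrafish libraries the 6 genes split in another way, and few reads stand behind each value. hspa5 and ier3 had 0 counts in all 5 libraries. Of the 31314 entry names, 29736 match the grass carp gene table, so the zebrafish libraries hold counts on grass carp entries, and how many zebrafish reads of a gene can be counted there was not tested. A zebrafish 0 is therefore a statement about these counts and not about the gene. Over the group 3 counts correspond to 5.03 CPM by the totals of named genes. Against that floor hspa5 was at least 4.92-fold higher in GSCT and at least 3.53-fold higher in grass carp sperm, and under 3 other scalings these bounds ran from 1.93 to 11.1 and from 1.35 to 7.995. ier3 in grass carp was at least 8.78-fold higher, with 3.36 to 19.9 under the other scalings. No bound is given for ier3 in GSCT, whose mean of 8.45 CPM lay below the floor under 2 of the 3 other scalings. fosaa had 1 count, in replicate 1. Reads of fosaa were then pooled over fish, so the intervals given here cover counting error and not the spread between fish. Its pooled ratio was 53.7 (exact 95% counting interval 9.58 to 2124) for GSCT over zebrafish and 35.8 (6.42 to 1416) for grass carp over zebrafish. Such differences are not particular to these genes, since only 33.1% of 25130 protein-coding genes had a zebrafish count. The fitted log2 difference of fosaa was 4.51 ± 0.80 (SE) for GSCT and 3.49 ± 0.77 (SE) for grass carp, beside medians of 4.14 and 8.53 over all genes tested. For grass carp hspa5 was at 8.25 ± 2.65 and ier3 at 9.60 ± 5.94 (log2 ± SE).

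egr1 and hspa8 were the members with the most zebrafish counts. egr1 had 299, 13, 0, 5 and 47 counts in replicates 1 to 5, which correspond to 1204, 219, 0, 47.4 and 256 CPM. Replicate 1 stood apart, and there egr1 had the rank 8 by count among all named genes. The mean was 345 ± 492 CPM (SD, n = 5), and 131 ± 126 CPM (SD, n = 4) without replicate 1. Each of the 4 libraries with a count lay above every GSCT and grass carp library. egr1 also took most of the counts on EGR genes there, 72.2% to 100% in the 4 libraries that had any. The 4 entries that neighbour egr1 had 0 counts in zebrafish libraries, beside 364 counts on egr1. Only 33.1% of 25130 protein-coding genes had a zebrafish count, and 5 of the 24 neighbours examined did. Nothing is therefore read from the 0 counts of these 4 entries.

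hspa8 had 6, 25, 0, 2 and 19 zebrafish counts in replicates 1 to 5, or 24.2, 422, 0, 19.0 and 104 CPM. Replicate 2 was the highest, and replicates 1 and 4 lay within or close to the range of the GSCT and grass carp libraries. The totals behind these CPM include rRNA genes, which held 86.1% and 52.7% of named counts in zebrafish replicates 1 and 4. That closeness therefore holds only on this scale. The mean of 114 ± 177 CPM (SD, n = 5) dropped to 36.7 ± 45.8 CPM (SD, n = 4) without replicate 2. Its share of the HSP70 counts was 50.5% ± 32.4 (SD, n = 4), and zebrafish replicate 3 had no count on the family. The family held only 13, 26, 10 and 48 counts in replicates 1, 2, 4 and 5. hspa8 did not lead in replicate 4, where hsp70.3 had 5 counts, or in replicate 5, where hspa1b had 27. The pooled ratio to zebrafish was 0.220 (exact 95% counting interval 0.155 to 0.314) for GSCT and 0.210 (0.157 to 0.286) for grass carp. These intervals pool reads over fish and leave out the spread between fish, so they are no test of a difference.

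hsp70.3 had 4, 0, 0, 5 and 1 counts in zebrafish replicates 1 to 5, or 16.1, 0, 0, 47.4 and 5.46 CPM. The mean of 13.8 ± 19.9 CPM (SD, n = 5) lay below the means of both other groups on totals that include rRNA. rRNA genes held 9.24% to 86.1% of named counts in zebrafish libraries, so this order is tied to that scale. The direction against zebrafish did not hold across scalings. The fitted log2 difference to GSCT was 0.73 ± 0.51 (SE) by TMM and -0.26 by DESeq2, and that to grass carp was -0.74 ± 0.68 (SE) by TMM and 1.86 by RLE size factors. For egr1 the fitted difference stayed negative, with zebrafish higher, in every setting in which it was fitted. egr1 was chosen by these levels, and with a filter a gene entered a fit only with enough counts in part of the libraries. In GSCT against zebrafish its high levels were those of zebrafish libraries, so nothing is read from the constant sign.

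Of the 191 genes in the 9 lists, the 6 included, 82 had at least 1 zebrafish count, which is 42.9%, beside 33.1% of 25130 protein-coding genes. Since the 6 were chosen by their levels in these same libraries, nothing is read from the difference. The AP-1 list had 9 of 13, the EGR, NR4A, KLF, MYC and SRF list 20 of 32, and the small, mitochondrial and collagen chaperones 1 of 15. hsp90ab1, the constitutive cytosolic HSP90, held 14, 98, 6, 362 and 832 counts in replicates 1 to 5. zfp36l1a, which encodes a protein that binds AU-rich mRNA and speeds its decay, held 285, 59, 0, 84 and 347 counts. fosb, a relative of fosaa, held 12, 7, 0, 2 and 78 counts, most of the FOS counts at 65.8% ± 17.8 (SD, n = 4). ier5l, an immediate early response gene, held 7, 3, 0, 198 and 33 counts. Different libraries thus held the highest counts of different genes. By count egr1 was highest in replicate 1, hspa8 in replicate 2, ier5l in replicate 4 and hsp90ab1 in replicate 5. Counts are not scaled to depth. By CPM hsp90ab1 was highest in replicate 3, at 12320 CPM from 6 counts, beside 4540 CPM in replicate 5, while the other 3 kept their replicate.

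**Figure D5:**
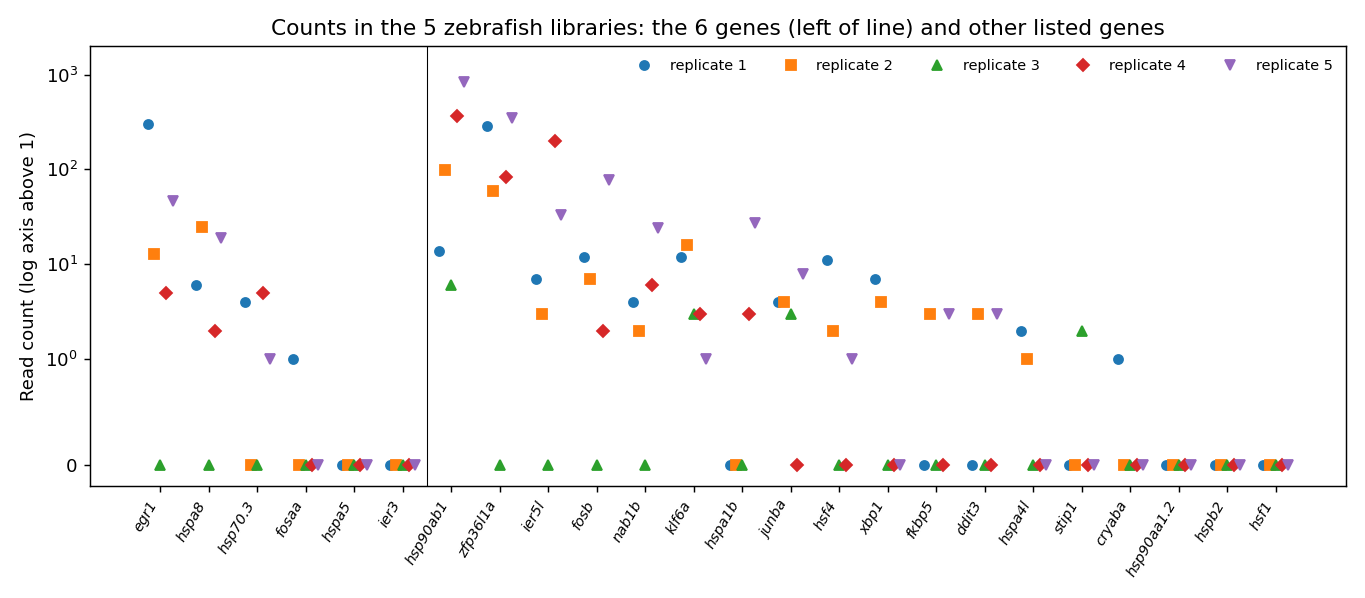
Read counts (log axis above 1) in the 5 zebrafish libraries for the 6 genes, left of the line, and for up to 2 other genes per list with the highest zebrafish level, right of it. egr1 reaches 299 counts in replicate 1 and hspa8 25 in replicate 2, while hspa5 and ier3 stay at 0 in all 5 libraries.

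Against zebrafish sperm 21 of the 185 further listed genes could be tested in GSCT and 129 in grass carp. In GSCT 13 were higher and 7 lower by the same edgeR test, where 87.3% of 5622 genes were called, 77.3% higher and 9.94% lower. In grass carp 88 were higher and 15 lower, where 82.1% of 20106 genes were called, 75.6% higher and 6.48% lower. Scaling by RLE size factors made the grass carp split 115 higher and 5 lower. Genes entered these tests only with enough counts in part of the libraries, so the direction of those tested is partly set by the filter. hsp90ab1, zfp36l1a and klf6a were named for their high zebrafish level. That choice favours a negative difference, so no test is given for them. The log2 difference of GSCT against zebrafish was -7.46 ± 2.21 (SE) for hsp90ab1 and -6.53 ± 1.99 (SE) for zfp36l1a. Both were negative in all 14 fits of that comparison, and given the choice nothing is read from this constant sign. For klf6a the direction depended on the scaling, with -2.19 ± 0.46 (log2 ± SE) by TMM, -3.19 by DESeq2 and 0.26 by RLE size factors. The median log2 difference of all genes was 4.14 in GSCT against zebrafish and 8.53 in grass carp against zebrafish, and by DESeq2 it was 2.65 and 2.43, so the level at which 0 lies differs between scalings.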

How the data were processed

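RNA of 13 sperm libraries, each of 1 fish per the labels' protocols, was compared. The authors deposited whole-number read counts per gene, not normalized, over the same 31338 entries. The submitters' processing notes name HISAT2, featureCounts of Subread, SAMtools, fastp, FastQC and CASAVA. The genome build was not given in the sources used here, and neither were tool versions, the strand setting or the handling of multiply mapping reads. Therefore overlapping genes, antisense genes and near-identical copies are uncertain and no coordinates are given. The 24 entries without a name were left out of totals and tests. Their share of counts was 0.172% to 0.678% in GSCT, 0.00360% to 0.138% in grass carp and 13.8% to 77.9% in zebrafish libraries. Gene spans and neighbours came from the RefSeq table of HZGC01.

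Pairs of groups were compared with edgeR 4.0.16 in R 4.3.3: TMM scaling, filterByExpr with its defaults (at least 10 counts, total of 15), the quasi-likelihood F test, Benjamini-Hochberg adjustment over all genes tested and a threshold of 0.05. The SE is the fitted log2 difference divided by the square root of F. The edgeR test was run on simulated counts with planted changes and the same spread for all genes, which the zebrafish libraries do not share. The SE itself was not examined there. Alternatives were RLE size factors, library totals alone, DESeq2 1.42.0, no filter, a replicate block and leaving out each library. Intervals at the 95% level and floors of 3 counts cover counting error only. The 6 genes and the lists were chosen with earlier results of these data known. Named beside them are listed genes that passed in GSCT against grass carp, up to 4 more per list by lowest p, up to 2 per list by zebrafish level and the 3 genes most like each member, from which the text gives a selection made after their values were seen. Neighbours, and among them the entries given with values, were also picked after their values were seen. No 2 libraries held identical counts.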

Additional observations from a re-analysis of the deposited data

Results flagged for a closer look

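In each group of 5 fish, a library was looked at again where its gap to the nearest other library took up most of the group's range (Dixon's 95% criterion). Of 20 groups of values examined 8 met it, where chance flags about 1 in 20. That rate does not apply to hspa5, ier3, dnajb4 and cdc37 in zebrafish sperm, which were at 0 in all 5 libraries and could not meet it. Of the 8, 6 are values of the genes that were chosen because they stand out in single libraries, so the criterion only describes them and the count is not read against chance. In grass carp sperm, ier3 stood at 104.0 CPM in replicate 5, beside 22.6 to 34.5 CPM in the other 4 libraries. hspa5 was highest in the same library at 20.7 CPM, beside 16.4 to 17.6 CPM. fosaa stood at 72.9 CPM in grass carp replicate 2, beside 54.9 to 59.1 CPM, and gadd45gb.1 at 16.5 CPM in grass carp replicate 4, beside 9.44 to 10.9 CPM.

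In zebrafish sperm, egr1 reached 1204 CPM in replicate 1, beside 0 to 256 CPM in the other 4 libraries. hspa8 reached 422.0 CPM in replicate 2, beside 0 to 104 CPM. fosaa at 4.03 CPM in replicate 1 and btg2 at 5.46 CPM in replicate 5 each rest on 1 count, with 0 in the other 4 libraries, which meets the criterion by construction.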

How the results depend on the processing

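The directions of hsp70.3, hspa5, fosaa, egr1 and ier3 between GSCT and grass carp sperm held in every alternative run. The count of 5 of 6 genes without overlap also stayed in all 11 alternatives added after seeing the data. Most of the 11 left out a single library, which cannot make separated groups overlap. The scaling without rRNA and mitochondrial genes could barely move the levels, since each held at most 1.79% of named counts. The 11 unchanged counts are therefore little evidence that the separation is stable. hspa8 ranged from -0.082 (log2), without GSCT replicate 1, to 0.23 when single libraries were left out. hsp70.3 against zebrafish changed sign. For GSCT it was -0.26 with DESeq2 and -0.45 to 1.37 when single libraries were left out (-0.45 without zebrafish replicate 2). For grass carp it was 1.86 with RLE size factors, 0.996 with library totals alone and 1.15e-04 without a filter. When single libraries were left out it ranged from -0.42 to 0.61 for grass carp, with 0.34 without zebrafish replicate 1 and 0.61 without zebrafish replicate 4. The cause was not tested.

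Of the listed genes called between GSCT and grass carp, 1 remained with library totals alone and 2 with DESeq2, and leaving out single libraries gave 0 to 8, with 0 higher and 3 lower without GSCT replicate 1 and 5 higher and 3 lower without grass carp replicate 2. For all genes leaving out single libraries gave 285 to 1534 calls instead of 1223, with 285 without GSCT replicate 2. Against zebrafish, GSCT had 21351 calls over all genes and 135 listed genes without a filter, where many more genes are tested, and 14 to 28 listed genes when single libraries were left out. Grass carp against zebrafish ranged from 6092 to 20747 calls over all genes and from 28 to 132 listed genes, the low counts each without 1 grass carp library.

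Replicate numbers did not pair the fish: correlations of same-numbered deviations between GSCT and grass carp were 0.0479, 0.0590 and -0.00313. With the replicate block, 2 listed genes were called for GSCT against grass carp (1 higher and 1 lower), 12 for GSCT against zebrafish and 96 for grass carp against zebrafish, and 996, 3839 and 15269 genes over all. Depth limits the zebrafish values, since 3 counts there are worth 12.1 to 6160 CPM, and so does scaling, which moved hsp70.3 in GSCT against zebrafish from -0.26 to 3.16 (log2). The bounds for hspa5 and ier3 under other scalings were added after seeing the data.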
